A study of Rattus norvegicus with 13 samples.

Results

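miR-221 and miR-222 are a pair of microRNAs made from neighbouring hairpins on the X chromosome, and they are described here in the fat of young female rats whose fathers had eaten a high-fat diet or chow. They were taken as the rows of the miRNA arrays whose systematic name is rno-miR-221 or rno-miR-222, which gave 2 of the 677 rat miRNAs on the array, with 4 probes between them. Both were among the 176 miRNAs bright enough to be tested.

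Each of the 13 arrays, read in the single dye Cy3, held RNA from 1 rat. The HFD group comprised 6 daughters of male Sprague Dawley rats given high-fat pellets (43% fat), and the Control group comprised 7 daughters of males given laboratory chow (9% fat). In both groups the fathers were mated at 15 weeks with chow-fed females, the daughters themselves ate chow, only females were used, and fat was taken at 14 weeks. Per the submitters' design text, the daughters of the high-fat fathers were glucose intolerant at an unchanged body weight and adiposity. The labels name no fat depot, litter or father, so each array stands for the animal number in its title, no arrays were paired, and the p-values rest on the spread between single animals, some of which may be sisters.

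A miRNA silences messenger RNAs that pair with its seed, a short stretch near its 5′ end, so miRNAs that share a seed share many targets. miR-221 and miR-222 are cut from one primary transcript. In human cells they repress the cell cycle inhibitor CDKN1B and the receptor KIT, and in rat vessels they promote the growth of smooth muscle cells. In mouse preadipocyte cultures both fall as the cells turn into fat cells, and both have been found raised in the fat of obese mice.

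The mature sequences are shown because their shared seed, in capitals, is what makes the pair a family. They come from RefSeq on build GRCr8, are written 5′ to 3′, and lie on the plus strand at chrX:6023246-6023268 for rno-miR-221-3p and chrX:6022682-6022702 for rno-miR-222-3p.
rno-miR-221-3p: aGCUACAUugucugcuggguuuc
rno-miR-222-3p: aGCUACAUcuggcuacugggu
The first 8 bases were identical, and the first difference, counted from the 5′ end of rno-miR-221-3p, was U9C. Without gaps, 11 of 21 positions matched. Of the 724 mature rat miRNAs in the sequence table, only these 2 carried the seed GCUACAU.

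The hairpins follow, with the 3p arm in capitals, to show where in each precursor the measured strand lies. Mir222 (chrX:6022621-6022723, 103 bases) and Mir221 (chrX:6023182-6023290, 109 bases) were 458 bases apart on the same strand.
Mir221: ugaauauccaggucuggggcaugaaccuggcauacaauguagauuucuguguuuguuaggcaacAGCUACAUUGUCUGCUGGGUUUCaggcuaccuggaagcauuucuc
Mir222: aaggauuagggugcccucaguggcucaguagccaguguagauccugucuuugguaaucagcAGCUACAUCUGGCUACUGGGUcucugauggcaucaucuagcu
The array names miR-221 and miR-222 stand for the 3p arms, and the starred names stand for the 5p arms, whose seeds differ from the 3p seed and from each other.
rno-miR-221-5p: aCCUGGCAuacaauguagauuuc
rno-miR-222-5p: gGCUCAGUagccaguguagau
Neither 5p arm was detected. Not one spot of miR-221* or miR-222* was well above background on any of the 13 arrays, and the scanner software called both undetected on all of them. The measured signal of the cluster was thus that of its 3p arms.

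A log2 level below is the background-subtracted spot brightness of a miRNA's probes, relative to the 75th percentile of the bright probes of the same array. A level of 0 equals that percentile, and a difference of 1 is a doubling. No miRNA's level was compared with that of another, since brightness also depends on the probe. The arrays detected 154 to 196 miRNAs each, their 75th percentiles ran from 1546 to 2540 intensity units, and no spot was saturated. All 6 miRNAs listed as adipocyte markers were tested. Their summed scaled signal was 6.51 to 7.82 over HFD arrays and 6.05 to 17.4 over Control arrays. Control 658 held the 17.4. On that array miR-143, also listed for vessel smooth muscle, was 2.34 above the median of the other arrays (log2). On the same measure miR-193 was at 0.24, miR-378 at 0.085, miR-365 at -0.052, miR-107 at -0.22 and miR-103 at -0.37. Of the 6 markers, 5 differed above 0 (HFD minus Control) and miR-143 below. Over all 176 tested miRNAs, 91 differed above 0 and 85 below. The median of the 6 markers was 0.11 on the log2 scale and 0.084 without Control 658, and none passed. Several skeletal muscle miRNAs varied widely, with a summed scaled signal of 0.0919 to 12.9 over HFD arrays and 0.105 to 10.9 over Control arrays. One Control array, that of animal 658, stood apart for several miRNAs, among them both members, and the group differences of both members are given with and without it.

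miR-221 was measured well on every array, at modest brightness, and averaged lower in daughters of high-fat fathers by an amount that did not pass the test. Its log2 levels in HFD animals were -3.95 in 619, -3.83 in 620, -3.89 in 624, -3.88 in 629, -3.61 in 660 and -3.72 in 663. In Control animals they were -3.34 in 622, -3.74 in 627, -3.76 in 631, -3.37 in 656, -1.75 in 658, -3.61 in 662 and -3.51 in 664. All 6 HFD animals lay below the Control mean, as did 6 of the 7 Control animals, since Control 658 raised it. Below the Control mean without 658 lay 6 of 6 HFD and 3 of 6 Control animals. The groups overlapped, since HFD 660 and 663 were above Control 627 and 631. The Control animals were spread far more widely than the HFD animals, and 1 of them, Control 658, stood far above all the others. Group means were -3.82 ± 0.13 in HFD fat (SD, n = 6) and -3.30 ± 0.70 in Control fat (SD, n = 7), or -3.55 ± 0.18 in Control fat without animal 658 (SD, n = 6).

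The difference of miR-221, HFD minus Control, was -0.52 ± 0.27 on the log2 scale (SE, 95% interval -1.11 to 0.071), or 0.698-fold (0.464 to 1.05). Its limma p was 0.0797 unadjusted and 0.965 after Benjamini-Hochberg adjustment over the 176 tested miRNAs. In that fit 0 of 176 miRNAs (0%) passed an adjusted p of 0.05, and 2 (1.14%) had an unadjusted p under 0.05. By difference miR-221 ranked 2 of 176 from the lowest (5 without Control 658), and by p it ranked 6. Without Control 658 the difference was -0.26 ± 0.086 (SE, interval -0.45 to -0.074), with an unadjusted limma p of 0.0103 and an adjusted p of 0.774. Its p then ranked 2 of 176, in a fit where 0 miRNAs (0%) passed the adjusted threshold and 5 (2.84%) had an unadjusted p under 0.05.

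An exact permutation test of the group means was run two-sided over all 1716 splits of the 13 animals. The exact p of miR-221 was 0.0105, and 0.615 after adjustment. Over all 176 miRNAs, 5 (2.84%) had an exact p under 0.05 and none passed after adjustment, where the lowest adjusted p was 0.308. Without Control 658, over 924 splits, the exact p was 0.0195 (adjusted 0.955), and 4 miRNAs (2.27%) had an exact p under 0.05. The smallest p this test can give is 0.00117 with 13 animals and 0.00216 with 12.

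The probes of miR-221 gave the same picture as each other. Every unflagged spot was well above background, 58 of 58 on HFD arrays and 68 of 68 on Control arrays for the brighter probe, and 58 of 58 on HFD arrays and 69 of 69 on Control arrays for the dimmer one. The spot-to-spot coefficient of variation of a probe within an array was 3.2 to 8.7%. The brighter probe alone differed by -0.51 ± 0.26 and the dimmer probe alone by -0.53 ± 0.28 (SE, HFD minus Control). In the scanner software's own unit, the total gene signal was 139, 146, 161, 223, 224 and 198 intensity units in HFD 619, 620, 624, 629, 660 and 663. It was 229, 145, 195, 268, 754, 225 and 216 intensity units in Control 622, 627, 631, 656, 658, 662 and 664. These totals are not scaled between arrays, and their stated errors were 7.68 to 9.03% on HFD arrays and 7.21 to 8.50% on Control arrays.

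**Figure D1:**
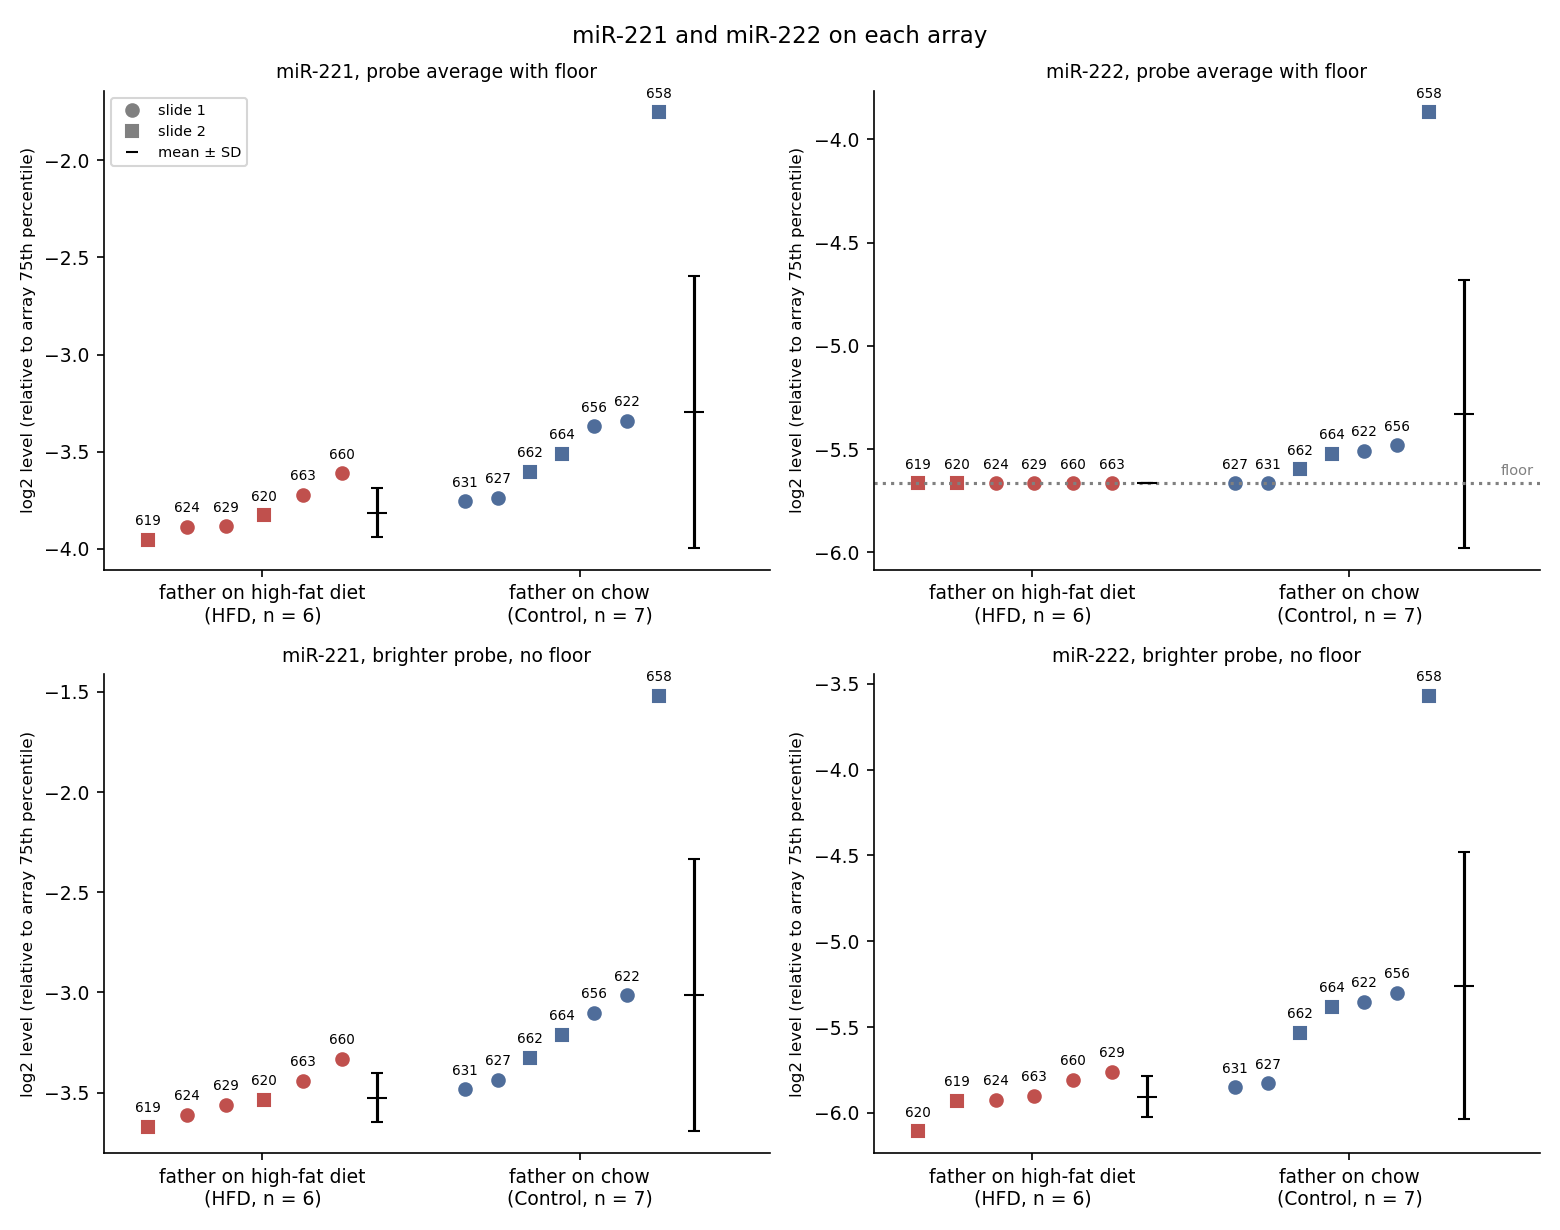
Log2 level of miR-221 (left) and miR-222 (right) on each array, HFD animals in red to the left of Control animals in blue, with animal numbers, slide by marker shape and bars for mean ± SD. The upper panels average each miRNA's probes with a floor (dotted line for miR-222, where all 6 HFD animals sit), and the lower panels show the brighter probe with no floor; Control 658 is the highest point in each panel, at -1.75 for miR-221 and -3.87 for miR-222 in the upper panels.

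miR-222, the cluster partner, was dim, close to what the arrays can measure. Averaged over its probes with a floor at a log2 level of -5.67, it sat at the floor on all 6 HFD arrays and on Control 627 and 631. The other Control animals were above it, at -5.51 in 622, -5.48 in 656, -3.87 in 658, -5.60 in 662 and -5.52 in 664. By the share of spots well above background, miR-222 was detected in 3 of 6 HFD animals (629, 660 and 663) and in 5 of 7 Control animals (all but 627 and 631). The scanner software called it detected in all 13. On this scale the HFD values are known only as at or under the floor, and the Control mean was -5.33 ± 0.65 (SD, n = 7).

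On that floored scale miR-222 differed by -0.33 ± 0.25 (SE, HFD minus Control, interval -0.87 to 0.20), with an unadjusted limma p of 0.203 and an adjusted p of 0.965. Without Control 658 it differed by -0.091 ± 0.039 (SE), with an unadjusted limma p of 0.0396 and an adjusted p of 0.951. The exact permutation p was 0.0326 with all animals (adjusted 0.991) and 0.0606 without Control 658 (adjusted 0.955). A size measured against a floor is set in part by the floor. With all 6 HFD values equal, the SE and limma p on this scale also hold no spread between HFD animals. The probes were therefore also taken without a floor.

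With no floor, the brighter miR-222 probe had log2 levels of -5.93, -6.11, -5.92, -5.76, -5.81 and -5.90 in HFD 619, 620, 624, 629, 660 and 663. In Control 622, 627, 631, 656, 658, 662 and 664 they were -5.35, -5.83, -5.85, -5.30, -3.57, -5.53 and -5.38. The overlap between groups ran over Control 627 and 631, the same animals that overlapped for miR-221, with HFD 629 and 660 above both of them. All the other Control animals were above every HFD animal. Means were -5.90 ± 0.12 in HFD fat (SD, n = 6) and -5.26 ± 0.78 in Control fat (SD, n = 7), or -5.54 ± 0.24 in Control fat without 658 (SD, n = 6).

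That probe differed by -0.65 ± 0.30 (SE, HFD minus Control), with a limma p of 0.0523 and an adjusted p of 0.966. Without Control 658 it differed by -0.36 ± 0.11 (SE, interval -0.59 to -0.13), with an unadjusted limma p of 0.00489 and an adjusted p of 0.430. The dimmer probe differed by -0.65 ± 0.38 with all animals and by -0.32 ± 0.18 without Control 658 (SE), with unadjusted limma p of 0.109 and 0.102. Neither passed. Spots of the brighter probe were well above background in 25 of 58 on HFD arrays and 45 of 66 on Control arrays. For the dimmer probe the counts were 2 of 59 on HFD arrays and 10 of 66 on Control arrays, of which 9 lay on Control 658 alone.

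The scanner software's total for miR-222 did not hold the same probes on every array. On 11 arrays the software's total equalled that of the brighter probe alone, while on Control 656 and 658 it was the sum of both probes, which widens the gap between groups. It read 17.4, 14.8, 19.3, 29.6, 24.0 and 21.5 intensity units in HFD 619, 620, 624, 629, 660 and 663, against 27.7, 16.6, 22.5, 54.8, 175, 29.1 and 28.8 intensity units in Control 622, 627, 631, 656, 658, 662 and 664. Scaled per array, it differed by -0.89 ± 0.41 (SE, limma adjusted p = 0.915), the largest size that any setting gave for miR-222, and by -0.52 ± 0.17 without Control 658 (SE, limma adjusted p = 0.763). The exact permutation p on that scale was 0.00233 (adjusted 0.155 over 200 miRNAs) and 0.00433 without Control 658 (adjusted 0.289). Of the 200, 12 (6%) had an exact p under 0.05, and 12 (6%) did so without Control 658. miR-221, whose total always held both probes, differed by -0.56 ± 0.28 on that scale (SE, limma adjusted p = 0.915), and by -0.30 ± 0.10 without Control 658 (SE, limma adjusted p = 0.763).

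The sign of both differences held in every setting that was run, and no setting brought either miRNA past the adjusted threshold. For miR-221 the 41 alternatives ran from -0.94 to -0.21, and for miR-222 the 40 alternatives ran from -0.89 to -0.0068, the last with the floor raised 4 times. Some of these settings, such as a changed detection filter, could not move the difference itself. Of all 176 miRNAs, 85 (48.3%) differed below 0, and 92 (52.3%) did so without Control 658.

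**Figure D2:**
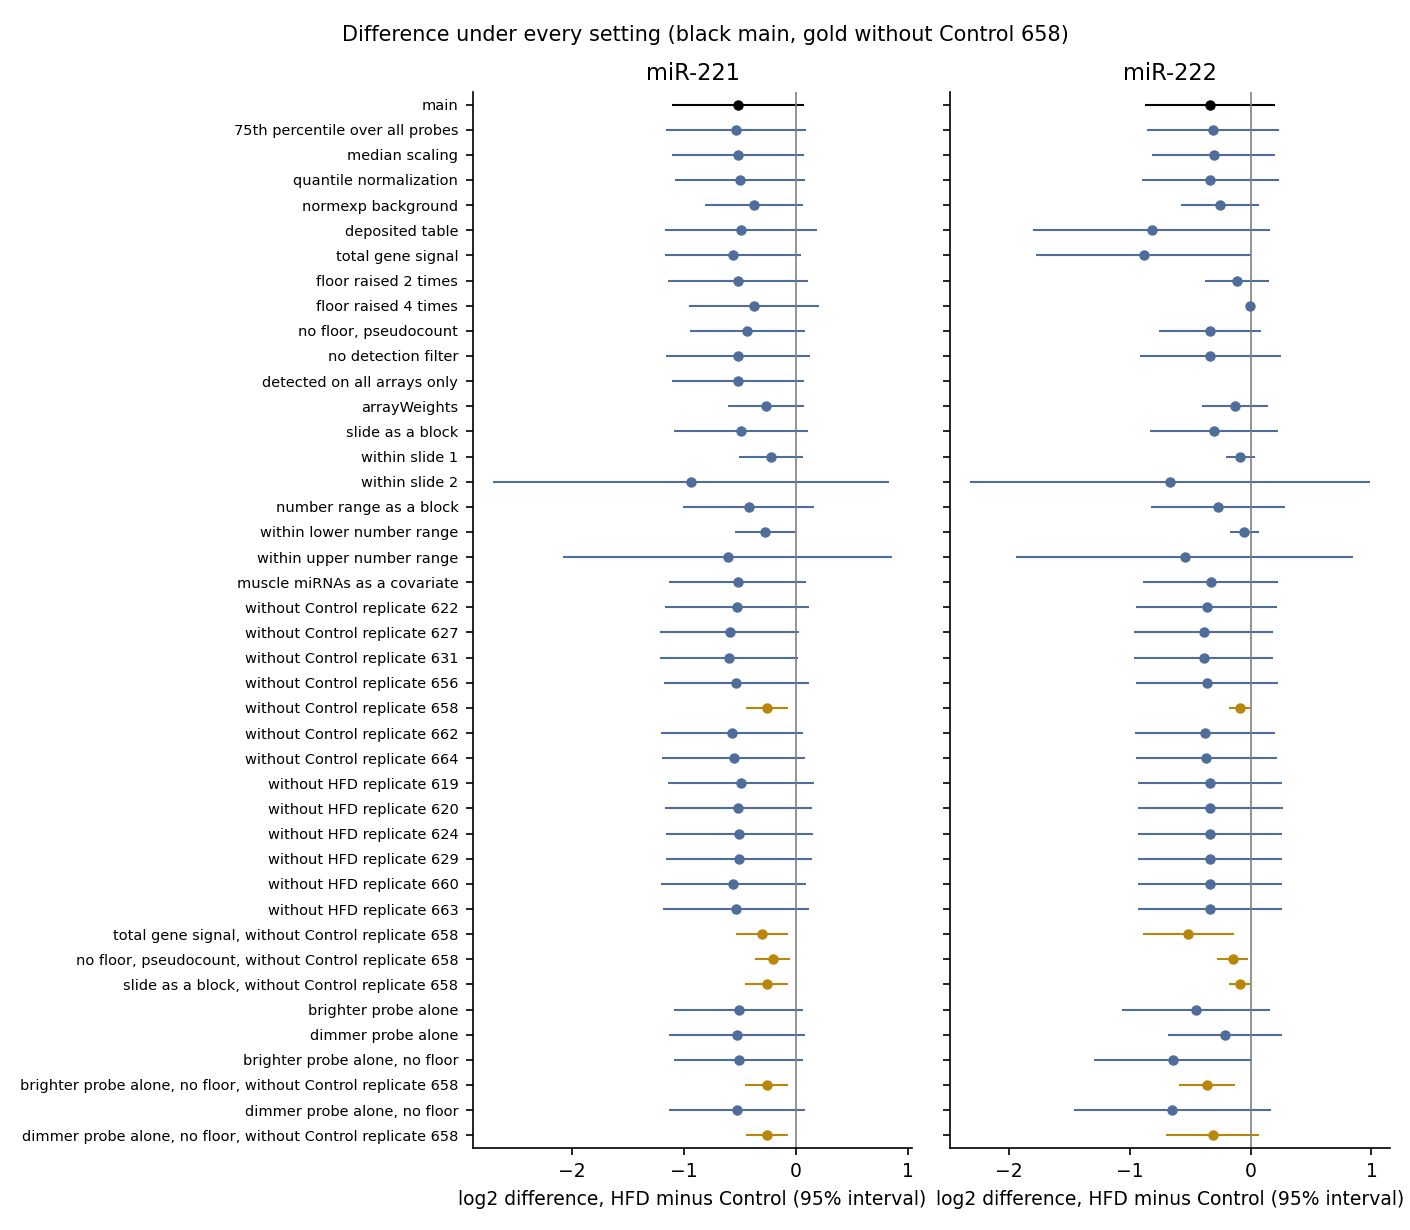
Log2 difference, HFD minus Control, of miR-221 (left) and miR-222 (right) in each setting, with 95% intervals from limma; the reported fit is black and settings without Control 658 are gold. Every point lies below 0, and the gold points of miR-221 sit closer to 0 (-0.26 in the reported fit without Control 658) with much shorter intervals.

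The arrays lay on 2 slides that both held animals of each group. Slide 1 carried 4 HFD and 4 Control animals, and there miR-221 differed by -0.23 ± 0.12 and miR-222 by -0.085 ± 0.052 (SE, HFD minus Control). Slide 2 carried 2 HFD and 3 Control animals, among them Control 658, and there miR-221 differed by -0.94 ± 0.65 and miR-222 by -0.67 ± 0.61. With slide as a block the values were -0.49 for miR-221 and -0.30 for miR-222. The difference between slides, slide 2 minus slide 1, was -0.71 ± 0.55 for miR-221 (limma adjusted p = 0.504) and -0.58 ± 0.49 for miR-222 (adjusted p = 0.528). Without Control 658 it was -0.11 for miR-221 (adjusted p = 0.846) and -0.019 for miR-222 (adjusted p = 0.929).

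The animal numbers fall into a lower range, with 4 HFD and 3 Control animals, and an upper range, with 2 HFD and 4 Control animals. The labels do not say what the ranges stand for. miR-221 differed by -0.28 ± 0.11 in the lower range (SE, unadjusted limma p of 0.0428, adjusted p = 0.590) and by -0.61 ± 0.58 in the upper range, which holds Control 658. In the lower range 14 of 176 miRNAs had an unadjusted limma p under 0.05. miR-222 differed by -0.052 ± 0.049 in the lower range and by -0.55 ± 0.55 in the upper one. With the level of the muscle miRNAs as a covariate the differences were -0.52 for miR-221 and -0.33 for miR-222, the same as without it to 2 decimals.

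Control 658 had an unusual profile for more miRNAs than this pair. Against the median of the other 12 arrays, miR-221 was 1.98 higher on the log2 scale (3.94-fold), rank 4 of 176, and miR-222 was at least 1.80 higher (at least 3.47-fold), because the median of the others was the floor itself, which also leaves its place in the order unsettled. For the brighter probe with no floor, the excess was 2.25 for miR-222 (4.75-fold) and 1.92 for miR-221 (3.78-fold). Above miR-221 were only miR-133b at 2.84, a skeletal muscle miRNA, and miR-145 at 2.42 and miR-143 at 2.34, both known from vessel smooth muscle. Next came miR-1 at 1.41, miR-199a-5p at 1.36 and miR-143* at 1.15 or more, its median elsewhere also being the floor, and miR-214 stood at 0.82. The muscle miRNAs were not highest on this array. Their summed scaled signal was 0.472 on Control 658, rank 5 of the 13 arrays, against up to 12.9 over HFD arrays and 10.9 over Control arrays. At the other end were miR-196a at -2.64, miR-338 at -2.00, miR-196b at -1.90, miR-196c at -1.33 and miR-146b at -1.01. The array detected 176 miRNAs and gave the highest value of 26 of the 176 tested (14.8%), within the 1 to 28 seen over the 13 arrays.

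**Figure D3:**
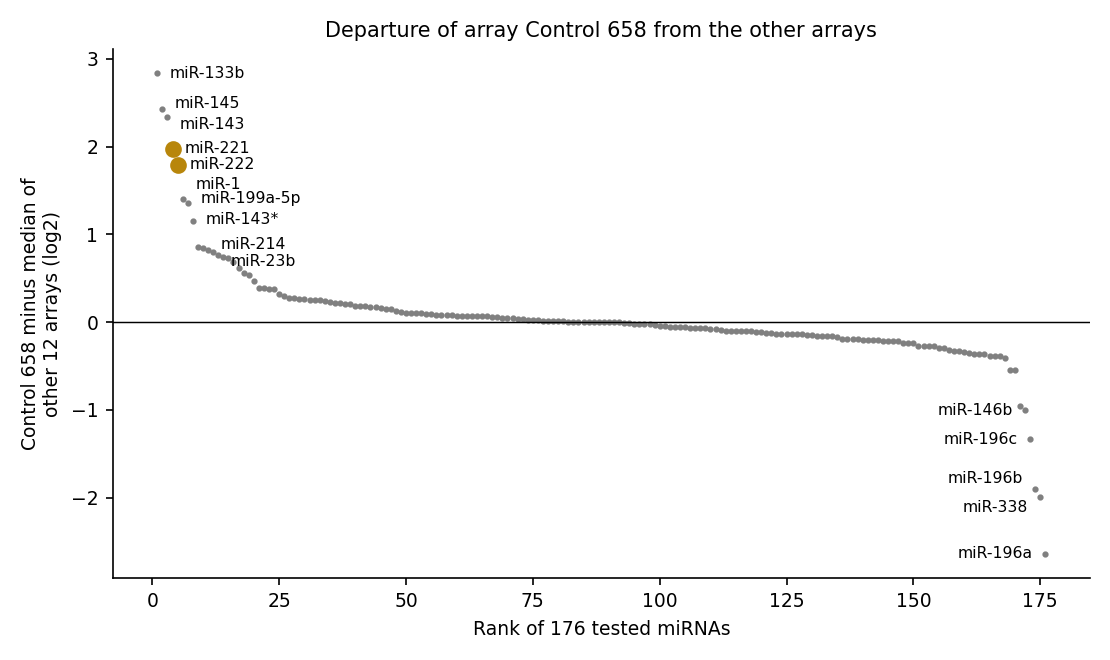
Log2 level on array Control 658 minus the median of the other 12 arrays, for each of the 176 tested miRNAs in rank order, with miR-221 and miR-222 as large gold points. miR-221, at 1.98, follows miR-133b (2.84), miR-145 (2.42) and miR-143 (2.34), and the 1.80 of miR-222 is a lower bound, since the other arrays' median is the floor; the miR-196 family and miR-338 lie at the low end.

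Markers of some other cell types of fat also stood high in Control 658, and those of others stood low. In whole tissue, fewer cells of a type and less RNA per cell cannot be told apart. For vessel smooth muscle, miR-143 and miR-145 were both tested (2 of 2), with a summed scaled signal of 2.77 to 3.07 over HFD arrays and 2.30 to 14.4 over Control arrays, where Control 658 held the 14.4. miR-143 differed by -0.35 and miR-145 by -0.28 with all animals, but by -0.023 and 0.069 without Control 658 (log2, HFD minus Control). For mesenchymal cells and fibroblasts, 3 of 3 markers were tested, with a sum of 1.35 to 1.82 over HFD arrays and 1.65 to 2.97 over Control arrays, again highest in Control 658. All 3 differed below 0 with and without that animal, among them miR-214 at -0.37 ± 0.12 (SE, limma adjusted p = 0.965) and at -0.27 without Control 658 (adjusted p = 0.289). Over all 176 miRNAs 48.3% differed below 0, and 52.3% did so without Control 658. For endothelium, miR-126 and miR-126* (2 of 2) summed to 3.01 to 3.74 over HFD arrays and 2.91 to 3.77 over Control arrays, with Control 658 among the lowest at 2.95. Of the white blood cell markers 5 of 6 were tested, with a sum of 1.87 to 2.45 over HFD arrays and 1.74 to 3.33 over Control arrays, where Control 658 held the 1.74. The red blood cell markers, 3 of 3 tested, summed to 3.15 to 6.91 over HFD arrays and 1.72 to 5.51 over Control arrays, with 4.96 in Control 658. Of the neural markers 3 of 7 were tested, with a sum of 0.111 to 1.27 over HFD arrays and 0.106 to 1.16 over Control arrays. Of the epithelial markers 2 of 7 were tested, with 0.217 to 0.314 over HFD arrays and 0.212 to 0.293 over Control arrays. Control 658 was lowest of the 13 for both, at 0.106 and 0.212. The liver and gut markers ranked 12 on Control 658, at 0.0602. miR-124 of the neural list and miR-141, miR-200c and miR-429 of the epithelial list were not detected on any array. The part of these cell types in the levels of miR-221 and miR-222 was not tested.

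miR-221 and miR-222 varied together across animals. To keep the floor out of it, the brighter probe of each was used with no floor. Over the 12 arrays without Control 658, Pearson's r was 0.880 and Spearman's rho 0.846 (permutation p = 0.0004 and 0.001, adjusted 0.00124 and 0.00255). With Control 658, over 13 arrays, r was 0.983 and rho 0.879 (permutation, adjusted p = 0.000373 and 0.0012). On the floored levels r was 0.974 and rho 0.871 over 13 arrays, and r was 0.847 and rho 0.786 after the arrays farthest from the median miR-221 level, Control 622 and 658, were left out (permutation, adjusted p = 0.00399 for each). A total of 28 such p-values were computed and adjusted together. Within the HFD animals the relation did not pass, with r at 0.293 and rho at 0.371 (n = 6, exact permutation p = 0.569 and 0.497, adjusted 0.569 and 0.516). In the Control animals r was 0.994 and rho 0.964 (n = 7, exact permutation p = 0.00159 and 0.00278, adjusted 0.00317 and 0.00432), and without Control 658 r was 0.932 and rho 0.943 (n = 6, exact permutation p = 0.0111 and 0.0167, adjusted 0.0135 and 0.0194). The HFD animals spanned a narrow range of both miRNAs, and for miR-222 that range lay below the floor. Levels on 1 array share its RNA and its scaling.

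**Figure D4:**
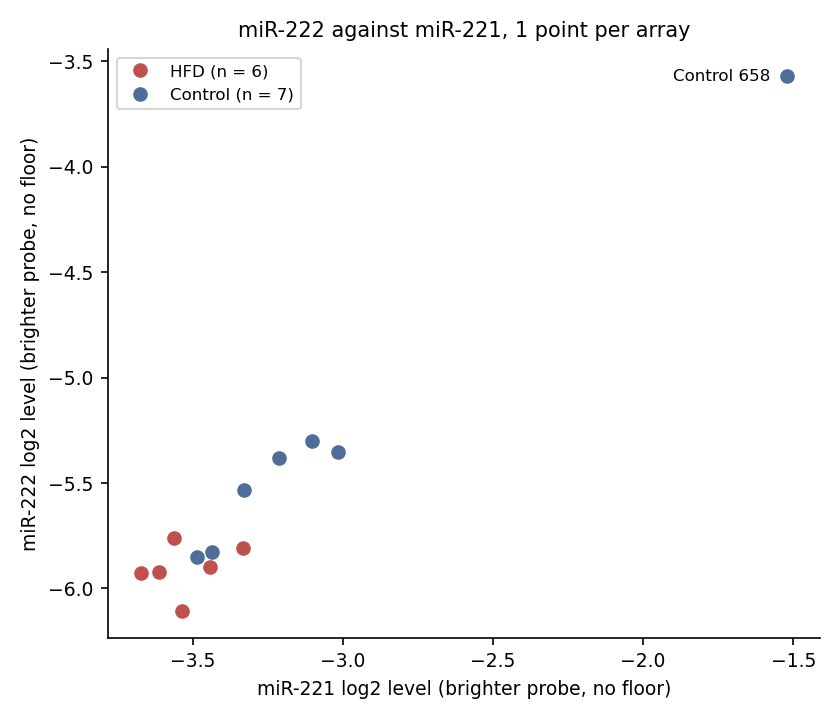
miR-222 against miR-221, as log2 levels of the brighter probe with no floor, 1 point per array, HFD in red and Control in blue. The points climb together (r = 0.880 without Control 658), the 6 HFD animals lie in the lower left with Control 627 and 631, and Control 658 stands alone in the upper right.

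Among all tested miRNAs, ranked by Spearman's rho over the 13 arrays as a description, the closest to miR-221 was miR-214, a mesenchymal miRNA, at 0.88 (0.85 without Control 658). miR-222 followed at 0.87 (0.83 without Control 658), then miR-455* at 0.67, miR-23b at 0.64 and miR-199a-5p at 0.60. The least alike were miR-770* and miR-494, both at -0.64, and miR-193* at -0.67. For miR-222, on floored levels with 8 of 13 arrays tied, miR-221 and miR-214 came first at 0.87 each, then miR-23b at 0.72, miR-100 at 0.70 and miR-199a-5p at 0.66. Its least alike were miR-203 and miR-34a, both at -0.59, and miR-193* at -0.60. On the scale with a pseudocount in place of the floor, miR-221 remained first for miR-222 at 0.77 while miR-214 stood at 0.65, after miR-100 at 0.68 and miR-23b at 0.67.

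Both miRNAs are among those known to restrain adipocyte differentiation. Of 15 listed, 14 were on the array, 10 were detected on some array and 9 were tested. None passed. Of the 9, 7 differed below 0 and 2 above, with a median difference of -0.072. Over all 176 miRNAs the median was 0.0028 and 48.3% differed below 0. Without Control 658, 6 of the 9 differed below 0 and 3 above, with a median of -0.029. Over all 176 the median was then -0.0038 and 52.3% differed below 0. Leaving the pair itself out, 5 of 7 differed below 0, with a median of -0.027, and without Control 658 it was 4 of 7, with a median of -0.0084. miR-145, better known from vessel smooth muscle, was at -0.28 ± 0.37 (SE) with all animals and at 0.069 without Control 658. miR-27b, a repressor of the adipocyte factor PPARG in human preadipocytes, was at -0.19 ± 0.14 (SE) and at -0.11 without Control 658, where miR-222 was at -0.091. miR-125b-5p was at -0.072 ± 0.060 (SE) and at -0.080 without Control 658.

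Both also belong to the miRNAs reported as raised in the fat of obese animals. Of 16 listed, 15 were on the array and 14 were tested, and none passed. The signs were 11 below 0 and 3 above, with a median of -0.090. Over all 176 miRNAs 48.3% differed below 0, with a median of 0.0028. Without Control 658 the signs were 12 below and 2 above, with a median of -0.091. Over all 176 it was then 52.3% below 0, with a median of -0.0038. Leaving the pair out, 9 of 12 differed below 0 (10 of 12 without Control 658), with a median of -0.078. miR-342-3p was at -0.16 ± 0.11, miR-99a at -0.084 ± 0.061, miR-100 at -0.097 ± 0.071 and miR-21 at -0.12 ± 0.12 (log2, SE, HFD minus Control). Without Control 658, miR-21 was at -0.044. miR-34a, miR-103 and miR-107 were the 3 with a difference above 0, and miR-34a was at -0.026 without Control 658.

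The spread of both miRNAs between animals also rested on Control 658. The SD of miR-221 over the 13 arrays was 0.57, rank 11 of 176, and 0.20 without Control 658, rank 42. For miR-222 it was 0.49, rank 14, and 0.072 without Control 658, rank 156, with most of its values at the floor.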

How the data were processed

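Each sample is 1 Agilent 1-colour rat miRNA array, labelled with Cy3 from 100 ng of total RNA per the labels' protocols and read, per the file headers, with the scanner software Agilent Feature Extraction (10.7.3.1; grid build rn4). The spot values are background-subtracted intensity per the file headers, with no scaling from array to array. The software's total gene signal per miRNA is likewise an intensity in the deposited files, and its total probe signal, on another scale, served to see which probes that total held. The deposited value table holds log2 of the total gene signal with no centring, by comparison with each array's own values. Its column medians ran from 6.95 to 7.77, and 26 of 2569 values were off by more than 2e-04. RMA and Partek appear, with no step given, in the submitters' processing notes.

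Control spots and flagged spots were left out. The mean over a probe's remaining spots was scaled by a percentile of its array (the 75th, among 260 probes detected throughout). Scaled values under 0.0197 (log2 -5.67) were raised to that floor before log2, and a miRNA's level is the mean of its probes. A miRNA counted as detected where at least 0.5 of a probe's spots were well above background, and was tested where detected on at least 6 arrays. Groups, from the sample titles, were compared two-sided with lmFit and eBayes of limma (3.58.1, under R 4.3.3; Benjamini-Hochberg adjustment, threshold 0.05), by exact permutation tests, and, for correlations, by 100000 permutations or all orders. The fit was tested on simulated data. The pseudocount, where used in place of the floor, equalled it. The normexp alternative (offset 50) used the median spot signal, since the files read here carry no mean signal.

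The members, the lists and the tests were chosen with earlier results of these data known. Named miRNAs are the members, the 5 most and 3 least alike by Spearman's rho, up to 4 of each list by p, and the cell type markers; others, among them the miRNAs furthest from the rest on Control 658 and the 3 of the obesity list above 0, were chosen after their values were seen. Precision is limited by the number of arrays.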

Additional observations from a re-analysis of the deposited data

Results flagged for a closer look

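Control 658 stood apart from the other 6 Control animals in each measure put to Dixon's test for a single extreme value. The test takes the gap to the nearest animal over the whole range (critical value 0.568 for 7 animals). The deposited log2 values were not put to this test. For miR-221 it was at -1.75 as log2 level (gap over range 0.793), at -1.14 as scaled total gene signal (0.795) and at -1.52 for the brighter probe with no floor (0.761). For miR-222 it was at -3.87 as log2 level (0.898), at -3.24 as scaled total gene signal (0.604) and at -3.57 for the brighter probe with no floor (0.759). These were 6 of the 11 groups of values examined. The floored miR-222 levels of the HFD animals, all equal, were left out, and the other groups of HFD values showed no such animal. Chance gives about 1 in 20, and the 6 are measures of the same animal on the same array. The cause was not tested.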

How the results depend on the processing

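All 41 alternatives for miR-221 and all 40 for miR-222 gave a difference below 0. None passed an adjusted p of 0.05, nor did any of the 176 miRNAs in the reported fit. Some alternatives could not move the difference, so their number does not measure how firm the sign is. miR-221 stayed at -0.52 under either detection filter. miR-222 stayed at -0.33 whichever HFD animal was left out, since all HFD values were the floor. The lowest adjusted limma p was 0.450 for miR-221 and 0.430 for miR-222. The 0.430 came from the brighter probe with no floor, without Control 658, in a fit where other miRNAs kept floored averages. The lowest adjusted exact permutation p, on total gene signal, was 0.408 for miR-221 and 0.155 for miR-222. Leaving out 1 animal at a time moved miR-221 between -0.60 and -0.26 and miR-222 between -0.39 and -0.091, and both values nearest 0 came without Control 658. The floor and the probes set the size for miR-222, at -0.11 with the floor raised 2 times, -0.0068 with it raised 4 times, -0.82 in the deposited table and -0.89 as total gene signal. Array weights gave -0.27 for miR-221 and -0.13 for miR-222, and normexp background correction -0.37 for miR-221 and -0.25 for miR-222. Requiring detection on all arrays gave no value for miR-222. The number of miRNAs with an unadjusted limma p under 0.05 was 2 in the reported fit, 12 with array weights and 17 within either slide. Settings that removed Control 658, other than the plain fit, and the probes with no floor, were chosen after seeing the data. No paired analysis was possible because the groups share no animal number. The limits are 6 against 7 animals, unknown litters and, for miR-222, a signal near background.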
